A study of Mus musculus with 6 samples.

Results

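The nuclear-encoded subunits of the mitochondrial respiratory chain and ATP synthase were compared between KPSC and KPC pancreatic tumour cells. Members were taken by symbol: the NDUFA, NDUFB, NDUFC, NDUFS and NDUFV subunits of complex I, the SDH subunits of complex II, the UQCR subunits of complex III, the COX subunits numbered 4 to 8 of complex IV, and the ATP5 subunits of ATP synthase. The rule took 82 of the 18180 genes with values: 39 for complex I, 4 for complex II, 8 for complex III, 16 for complex IV and 15 for ATP synthase. Of these, 80 passed the filter on low values and were tested among 16737 genes. Ndufb4c, which was tested, and Ndufa11b, which was not, are annotated as processed pseudogenes, and Cox8b was the other member too low to test. The symbol rule leaves out Ndufab1 and the assembly factors.

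The study has 3 libraries titled KPSC and 3 titled KPC. All came from C57BL/6 mice bearing orthotopic tumours of pancreatic ductal adenocarcinoma (PDAC). Orthotopic tumours here are grown from cells placed in the pancreas. Tumours were collected after about 10 to 14 days, and bulk RNA was sequenced from sorted tumour cells with a TruSeq kit. The genotype field calls the KPSC libraries wild type and the KPC libraries Setd2 knockout. The labels do not spell out the titles, which may mean the reverse, so each library is called by its title and nothing is tied to a genotype. Setd2, a histone methyltransferase gene, had 859, 908 and 1042 normalised reads in KPSC libraries and 1338, 1099 and 1046 in KPC libraries (limma, adjusted p = 0.148), which does not settle the labels. The labels do not say how many cell lines or animals the libraries came from, so the p-values measure the spread between these libraries, which may be technical.

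The respiratory chain passes electrons from NADH through complex I, or from succinate through complex II, by way of ubiquinone to complex III, cytochrome c and complex IV, where oxygen is reduced. Complexes I, III and IV pump protons across the inner mitochondrial membrane, and ATP synthase uses the returning protons to make ATP. Most subunits are encoded in the nucleus and imported, while a small core is encoded in mitochondrial DNA and was not analysed here.

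Reads recovered from the deposited values came to 16763856, 15215066 and 16995401 in KPSC and 15753044, 17746969 and 14662710 in KPC. These totals cover reads counted to genes with values and are not the sequencing depth. Values are reads per gene divided by a size factor for each library, here called normalised reads. The libraries differed in other tissue RNA. Exocrine acinar genes took 20.4%, 10.6% and 0.434% of reads in KPSC replicates 1, 2 and 3, and 2.78%, 1.05% and 8.11% in KPC replicates 1, 2 and 3. Genes of striated muscle took 0.311% of reads in KPSC replicate 3 and at most 0.00288% in the others, and all 10 were highest in that library. Ductal epithelium markers were higher in KPSC, with 7 of 11 called, beside 7.61% of all tested genes called higher. They took 0.672% to 0.840% of reads in KPSC, against 0.433% to 0.526% in KPC. Leukocyte markers were lower, with 7 of 17 called, beside 6.76% of all tested genes called lower. They took 0.122% to 0.173% of reads in KPSC, against 0.211% to 0.274% in KPC. All 10 islet genes had a negative log2 fold change, with a median of −1.84, and none was called. Of 10 fibroblast genes 1 was called lower, and of 8 endothelial genes none was called. Fibroblast genes took 0.577%, 0.836% and 1.60% of reads in KPSC replicates 1, 2 and 3, against 0.934% to 1.13% in KPC. Endothelial genes took 0.0120%, 0.0138% and 0.0250% in KPSC, against 0.0147% to 0.0227% in KPC. KPSC replicate 3 was the highest library for 7 of the 10 fibroblast and 5 of the 8 endothelial genes. The part of these tissue differences in the results below was not tested. In bulk RNA, fewer cells of a type and less RNA per cell cannot be told apart.

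Of the 80 tested members, 6 rose in KPSC and 0 fell (limma, adjusted p under 0.05). Among the 6 were Ndufa10 and Ndufs1 of complex I, Sdhc of complex II, Uqcrc2 of complex III and Atp5g3 of ATP synthase, with log2 fold changes of 0.40 to 0.69. That is 7.5% of the members, beside 7.61% of all tested genes called higher, while 6.76% of all tested genes were called lower. At an unadjusted p under 0.05 there were 16 members, or 20.0%, beside 29.0% of all tested genes. The median log2 fold change was 0.11 for the members and 0.01 for all genes, with 54 members above 0 and 26 below. The groups did not overlap for 16 members, or 20.0%, beside 34.8% of all genes. KPSC libraries all lay above KPC libraries for 14 of these (17.5%, beside 17.6% of all genes) and all below for 2 (2.5%, beside 17.2%). For the other 64 the groups overlapped. The members' median turned to −0.08 where libraries were scaled to equal totals, a scaling that moved the median of all genes to −0.18.

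**Figure D1:**
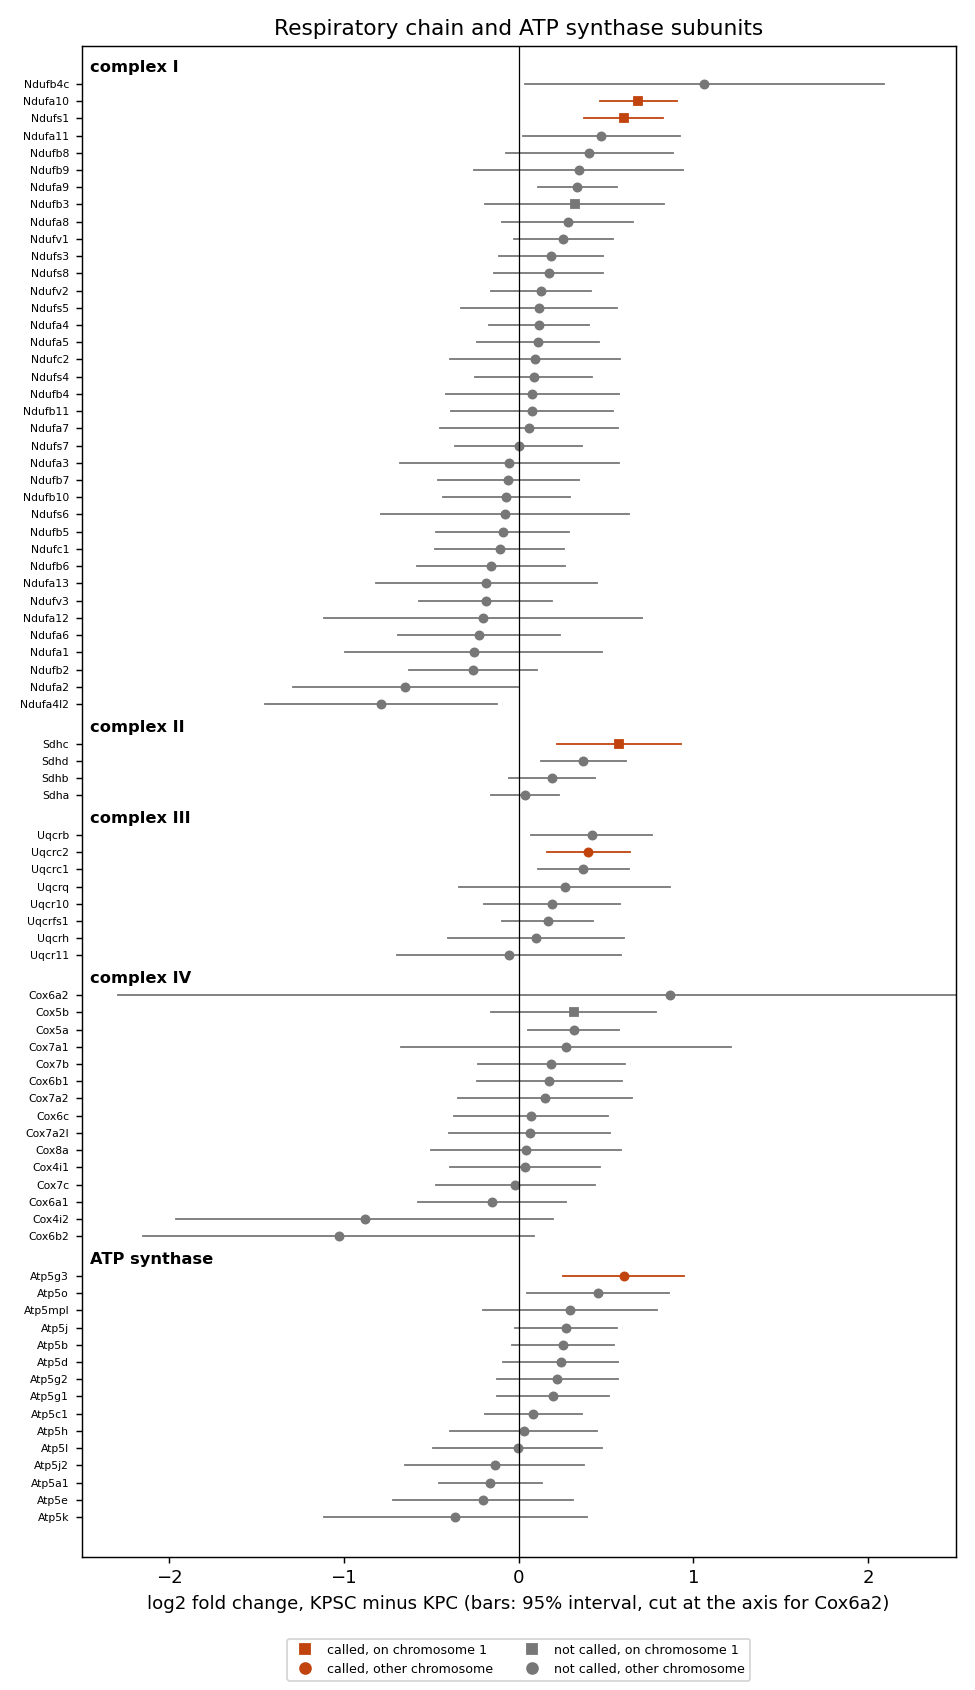
Log2 fold change, KPSC minus KPC, of 79 of the 80 tested members by complex, as points with 95% intervals. The called members shown, in orange, range from 0.40 to 0.69, and most grey intervals cross 0.

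Which members passed also depended on the libraries. The count called higher was 2, 3 and 8 without KPSC replicate 1, 2 and 3, beside 4.25%, 4.34% and 9.05% of all genes in the same fits. It was 2, 5 and 2 without KPC replicate 1, 2 and 3, beside 4.99%, 4.78% and 4.37% of all genes. Ndufa10 and Ndufs1 passed in each of these 6 fits. Sdhc passed in 2 of them, and Uqcrc2 and Atp5g3 in 1 each. With libraries scaled to equal totals, 0 members were called higher and 1, Ndufa2, lower, beside 2.27% and 5.33% of all genes. In that fit 11 members had an unadjusted p under 0.05. edgeR on the recovered reads called 8 members higher and 0 lower, beside 9.03% and 8.28% of all genes.

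Complex I takes electrons from NADH through its peripheral arm, and 22 of its 38 tested members had a positive log2 fold change, with a median of 0.08. Ndufa10, an accessory subunit of the membrane arm, had 1753, 1723 and 1893 normalised reads in KPSC and 1026, 1105 and 1211 in KPC. Every KPSC library lay above every KPC library. The means were 1790 ± 90.7 and 1114 ± 92.7 (SD, n = 3 each), a log2 fold change of 0.69 (SE 0.10; limma, adjusted p = 0.00391). The gene lies on chromosome 1 at 92439010 to 92473860 (mm10, minus strand).

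Ndufs1, the largest subunit and a carrier of iron-sulphur clusters, had 1352, 1179 and 1403 normalised reads in KPSC and 866, 895 and 827 in KPC, with no overlap. Its log2 fold change was 0.60 (SE 0.10; limma, adjusted p = 0.00718). It lies on chromosome 1 at 63143596 to 63176833.

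Ndufs1 overlaps other genes on the opposite strand, and whether counting used strand is not given in the sources used here. Eef1b2, which overlaps Ndufs1, averaged 10637 ± 2805 normalised reads in KPSC and 7386 ± 1516 in KPC (SD, n = 3 each; limma, adjusted p = 0.200). In all, 21 members overlap another gene with values.

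The 7 core subunits of complex I had a median log2 fold change of 0.18, and the 31 accessory ones 0.06. Ndufa9, an accessory subunit that binds NADPH, lay just past the threshold at 0.34 (limma, adjusted p = 0.0571). At the other end was Ndufa4l2, a relative of Ndufa4 whose human counterpart is induced by hypoxia. It had 163, 137 and 184 normalised reads in KPSC and 186, 421 and 273 in KPC, so every KPSC library was lower, with KPSC replicate 3 and KPC replicate 1 nearly level. The log2 fold change was −0.79 (SE 0.29; limma, adjusted p = 0.112), and the authors' deposited table calls it lower with an adjusted p of 0.0231. Leaving out KPC replicate 2 gave −0.49, and leaving out KPC replicate 1 a called value of −1.07 (limma, adjusted p = 0.0445). All 12 genes of a hypoxia list had a negative log2 fold change, with a median of −0.68. Of these 5 fell, beside 6.76% of all tested genes called lower. The part of this in the value of Ndufa4l2 was not tested. Ndufa4, its main form and now often placed in complex IV, was at 0.12. Ndufa2, an accessory subunit on chromosome 18, had a log2 fold change of −0.65 (SE 0.28; limma, adjusted p = 0.169) with overlapping groups. Ndufb4c, the pseudogene, had the highest value of all members at 1.06 on 9.10 to 44.0 normalised reads (limma, adjusted p = 0.159), and 0.61 without KPC replicate 1.

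Complex II is encoded wholly in the nucleus and also serves in the citric acid cycle. Sdhc, a membrane anchor that holds haem and ubiquinone, had 2646, 2355 and 2115 normalised reads in KPSC and 1288, 1895 and 1634 in KPC, without overlap. Its log2 fold change was 0.57 (SE 0.15; limma, adjusted p = 0.0453), the closest to the threshold of those called. It lies on chromosome 1 at 171127165 to 171150603. Sdhd, the other anchor, had 2015, 1841 and 1882 normalised reads in KPSC and 1321, 1655 and 1476 in KPC. The difference was 0.37 on the log2 scale (SE 0.11; limma, adjusted p = 0.0539).

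The catalytic subunits of complex II lay lower. Sdha, the flavoprotein that oxidises succinate, had 2961, 2830 and 3002 normalised reads in KPSC and 2814, 2824 and 2939 in KPC. Its groups overlapped, and its log2 fold change was 0.04 (95% interval −0.16 to 0.23). Sdhb, the iron-sulphur subunit, was at 0.19 (95% interval −0.05 to 0.44).

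Complex III passes electrons from ubiquinol to cytochrome c. Of its 8 members 1 rose, beside 7.61% of all tested genes, and 7 had a positive log2 fold change, with a median of 0.23. Uqcrc2, a core protein on the matrix side, had 1567, 1355 and 1658 normalised reads in KPSC and 1092, 1209 and 1165 in KPC, without overlap. That gave a log2 fold change of 0.40 (SE 0.10; limma, adjusted p = 0.0393), and it lies on chromosome 7 at 120635176 to 120659524. Its partner Uqcrc1 had 2995, 2912 and 2995 normalised reads in KPSC and 1985, 2375 and 2564 in KPC, with a log2 fold change of 0.37 (SE 0.11; limma, adjusted p = 0.0651). Uqcrb, which binds ubiquinone, was at 0.42 (limma, adjusted p = 0.108) with overlapping groups. The Rieske iron-sulphur protein gene Uqcrfs1 was at 0.17, and Uqcr11, a small subunit, was lowest at −0.06.

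ATP synthase has a catalytic F1 head, a ring of c subunits that turns with proton flow, and stalks that join them. Atp5g1, Atp5g2 and Atp5g3 encode the same mature c subunit with different import sequences. Atp5g3 had 4523, 4185 and 3384 normalised reads in KPSC and 2238, 2808 and 2920 in KPC, without overlap. Its log2 fold change was 0.60 (SE 0.15; limma, adjusted p = 0.0343), and it lies on chromosome 2 at 73908447 to 73911326. Atp5g1 was at 0.20 (95% interval −0.12 to 0.52) and Atp5g2 at 0.22 (95% interval −0.12 to 0.57), and the groups overlapped for both. Without KPC replicate 1 they were at 0.054 and 0.072.

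None of the 5 F1 subunits was called, beside 7.61% of all tested genes called higher and 6.76% lower. Their median log2 fold change was 0.08. Atp5b, the catalytic beta subunit, had 12151, 11838 and 11567 normalised reads in KPSC and 9270, 10233 and 10384 in KPC. The groups did not overlap, yet the log2 fold change was 0.25 (SE 0.13; limma, adjusted p = 0.234). DESeq2 on the recovered reads called Atp5b higher. Atp5a1, the alpha subunit and its partner in the head, was at −0.16 (95% interval −0.46 to 0.13). The 7 membrane and stalk subunits had a median of 0.03, from Atp5o at 0.46 to Atp5k at −0.36. Atp5o was called higher without KPSC replicate 3, and again with KPC replicate 1 also left out. It was also called higher where log2 values were centred on gene length. The value of Atp5k was −0.076 without KPSC replicate 3, −0.11 without KPC replicate 2 and −0.67 without KPC replicate 1.

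**Figure D2:**
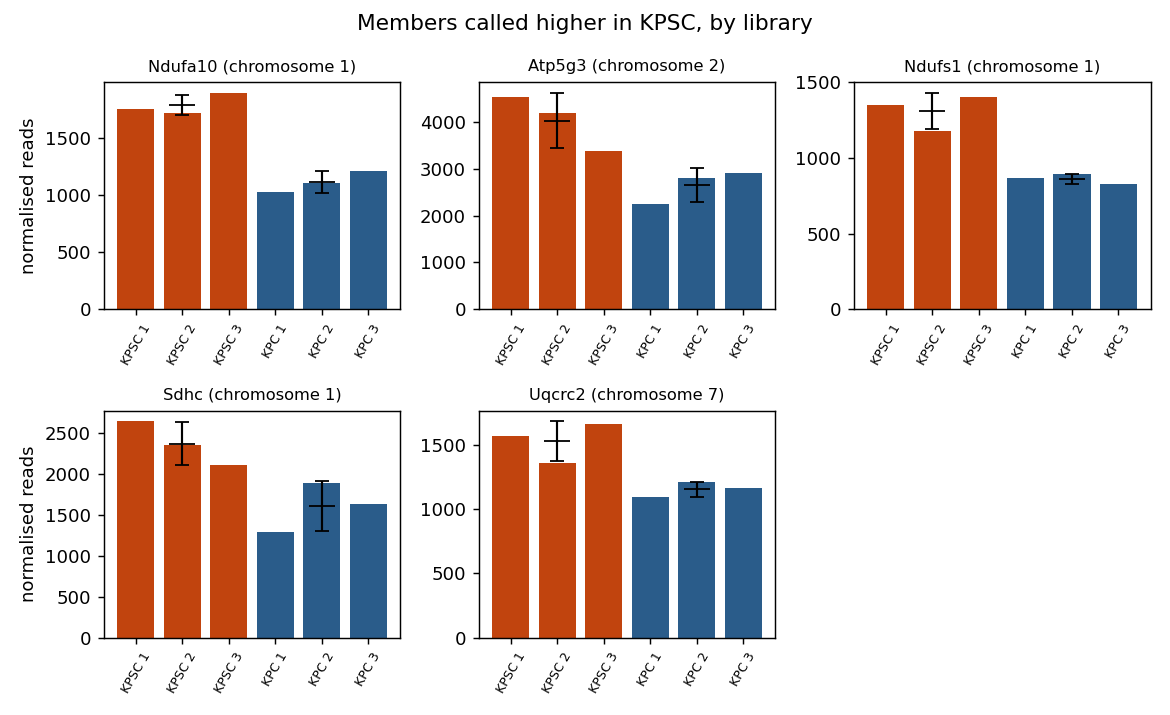
Normalised reads of 5 called members in each library, KPSC bars in orange on the left and KPC bars in blue, with the mean and SD of each group in black. In every panel the lowest KPSC bar stands above the highest KPC bar, and KPC replicate 1 is lowest for 4 of the 5, Ndufs1 being the exception.

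Complex IV reduces oxygen, and none of its 15 tested members was called, beside 7.61% of all tested genes called higher and 6.76% lower. Of the 15, 1 had an unadjusted p under 0.05 (limma), beside 29% of all tested genes. edgeR called none, beside 9.03% of all genes higher and 8.28% lower. DESeq2 called none, beside 8.82% and 8%. Cox5b was called higher without KPSC replicate 3, and again with KPC replicate 1 also left out. The median log2 fold change of complex IV was 0.07, and it turned to −0.085 without KPC replicate 1 and to −0.051 without KPSC replicate 1. Several of its subunits have a main form and a form restricted to certain tissues. Cox4i1, the main form of subunit 4, had 5389, 5168 and 3724 normalised reads in KPSC and 3731, 4859 and 5292 in KPC, with a log2 fold change of 0.04 (95% interval −0.39 to 0.47). Cox4i2, the form of lung, had 15.7, 10.1 and 22.5 in KPSC and 17.3, 30.3 and 46.4 in KPC (log2 fold change −0.88; limma, adjusted p = 0.260). Cox6b2, the testis form of subunit 6b, had 30.2, 29.0 and 9.50 in KPSC and 31.8, 43.7 and 56.1 in KPC. Its KPSC libraries all lay lower, with a log2 fold change of −1.03 (SE 0.48; limma, adjusted p = 0.206), and without KPSC replicate 3 it was −0.52.

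The heart and skeletal muscle forms Cox6a2 and Cox8b were high in 1 library. Cox6a2 had 8.45, 7.82 and 436 normalised reads in KPSC and 15.5, 20.2 and 16.2 in KPC. KPSC replicate 3 alone was high, and the log2 fold change of 0.87 (SE 1.36) became −0.99 without it. Cox8b had 0, 1.12 and 150 normalised reads in KPSC and 0 in each KPC library. The same library held 19875 normalised reads of Acta1, skeletal muscle actin, and 3012 of Ckm, muscle creatine kinase, against at most 5.59 and 2.23 in the other libraries. Cox7a1, the third muscle form, differed less, with 47.1, 41.3 and 63.0 in KPSC and 29.1, 75.7 and 31.3 in KPC. The main forms Cox6a1, Cox7a2 and Cox8a had at least 1115 normalised reads in every library, and their log2 fold changes were −0.15, 0.15 and 0.04.

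**Figure D3:**
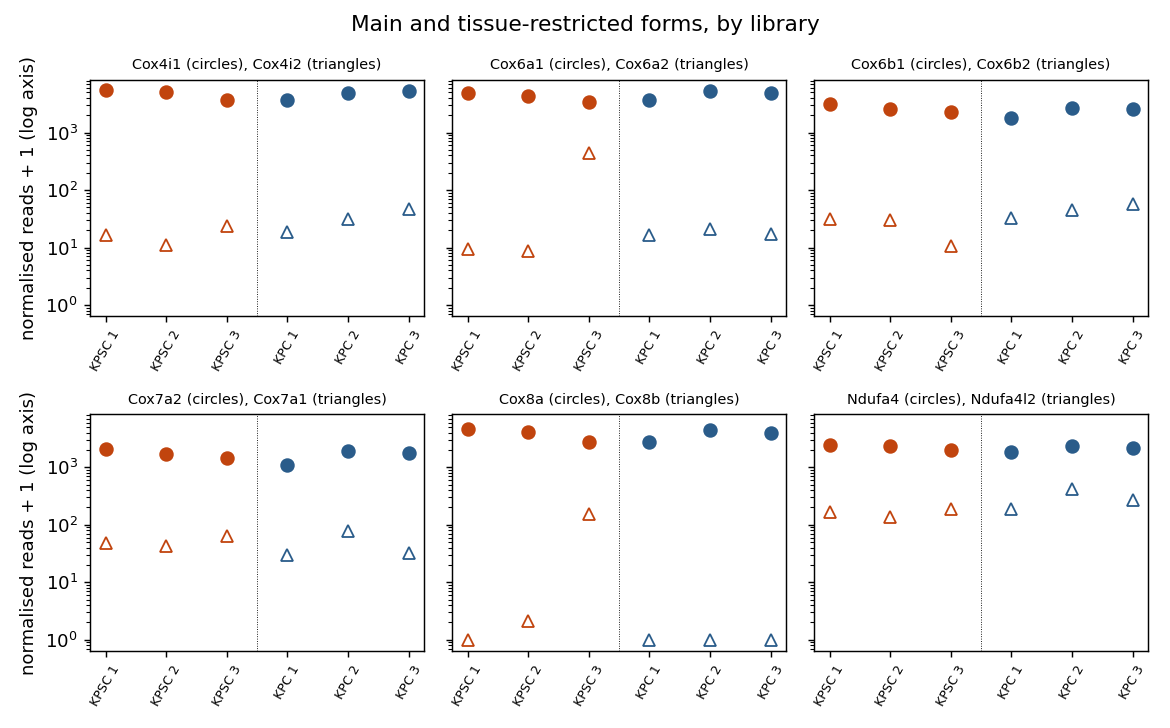
Normalised reads plus 1, on a log axis, of main forms (circles) and tissue-restricted relatives (triangles) in each library, KPSC in orange on the left and KPC in blue. Cox6a2 at 436 and Cox8b at 150 in KPSC replicate 3 stand above the other libraries.

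Levels were compared between genes per kilobase of deposited gene length, averaged over the 6 libraries. Cox8a was highest at 6903 normalised reads per kb, then Cox6a1 at 6286 and Ndufa2 at 4862. Among the called members described here the order of levels was Atp5g3 at 1533, Sdhc at 612, Uqcrc2 at 525, Ndufa10 at 436 and Ndufs1 at 134 per kb. Together the members took 0.886%, 0.961% and 0.940% of reads in KPSC and 0.847%, 1.1% and 1.01% in KPC, so the groups overlapped on this share.

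Within each group the members moved with the library. KPC replicate 1 was the lowest KPC library for 79 of 80 members, against 6135 of 16737 genes. KPSC replicate 3 was the lowest KPSC library for 66 of 80, against 6287 of 16737. The members' median deviation from the mean of the 6 libraries was 0.25, 0.11 and −0.17 (log2) in KPSC and −0.36, 0.10 and 0.08 in KPC. Members are short by deposited gene length: 66.2% are under 2 kb, against 18.9% of all tested genes. For 76 members that length equals the union of exons, which can exceed the length of a transcript. Among all 271 genes under 1 kb with a mean of at least 50, KPSC replicate 3 and KPC replicate 1 were also low, with median deviations of −0.30 and −0.33. Among members of 2 kb and over, KPC replicate 1 was the lowest KPC library for 26 of 27. Among all genes of that length with a mean of at least 50, it was lowest for 3388 of 10601. The 6 called members were all among the 27 of 2 kb or more, a class in which 1114 of 13578 genes were called higher. None of the 53 shorter members was called, beside 160 of 3159 genes under 2 kb (5.06%) called higher. Centring each library's log2 values on a curve over gene length, chosen after seeing the data, gave 10 members called higher and 1, Ndufa2, lower. In that fit 9.2% of all genes were called higher and 8.98% lower.

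**Figure D4:**
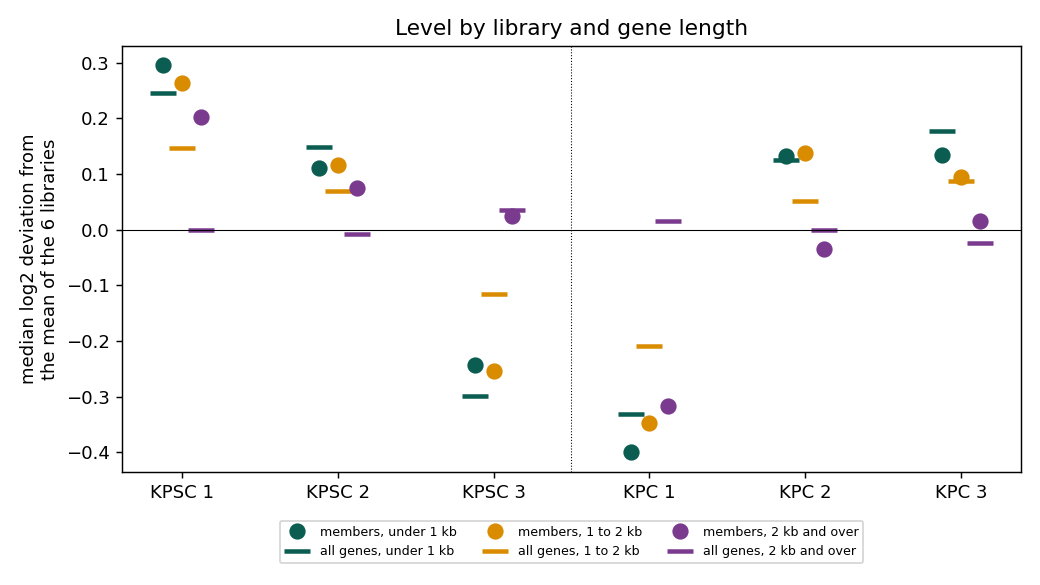
Median log2 deviation from the mean of the 6 libraries, by library and gene length class, for members (circles) and all genes with a mean of at least 50 (dashes). KPSC replicate 3 and KPC replicate 1 lie low for short genes of both kinds, and KPC replicate 1 also for members of 2 kb and over, at −0.32 against 0.02 for all genes.

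The called members were unevenly placed on chromosomes. Chromosome 1 holds 6 tested members, of which 4 were called, Ndufa10, Ndufs1 and Sdhc among them. The median log2 fold change of these 6 was 0.57. The chromosome's 717 other genes with a mean of at least 50 had a median of 0.39, with 36.8% called higher and 4.74% lower. Off chromosome 1, 2 of 74 members were called, beside 998 of 15711 genes called higher, and the members' median was 0.09.

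Neighbours within 2 Mb gave a closer view. The median log2 fold change was 0.49 over the 39 other genes around Ndufa10, 0.50 over 12 around Ndufs1 and 0.44 over 16 around Atp5g3. Around Sdhc 54 genes had 0.11. Around Uqcrc2 32 genes had −0.03. Chromosome 18, with Ndufa2 and Atp5a1, had a median of −0.36 and 33.8% of genes called lower. Of all 80 members, 55 lay above the median of their chromosome, 51 of them off chromosome 1. What sets the chromosome medians apart was not tested.

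**Figure D5:**
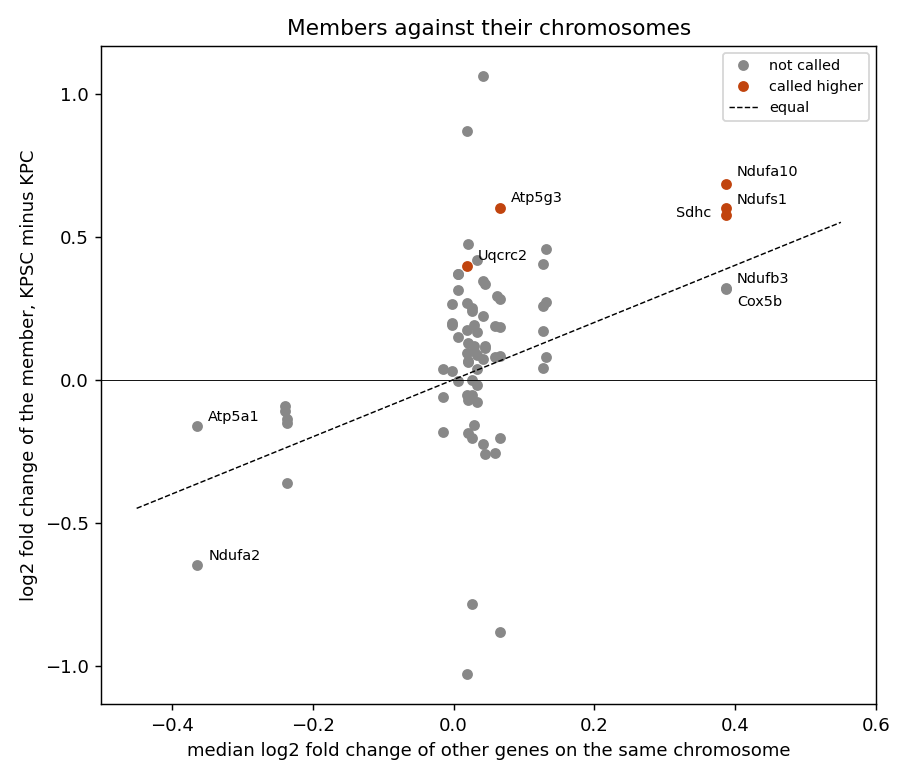
Log2 fold change of 79 of the 80 tested members, KPSC minus KPC, against the median of the other genes on its chromosome, with a dashed line where both are equal. Ndufa10, Ndufs1 and Sdhc of chromosome 1 lie at the right, where the chromosome median is 0.39, and Ndufa2 and Atp5a1 at the left, where it is −0.36.

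Promoters were read from RefSeq windows on GRCm38.p6 that run from 250 bases before to 50 after a gene's start, and 65 of the 82 members had at least 1 window. Sites for regulators of respiratory genes were searched by letters on both strands. The NRF1 motif, GCGCA and GCGC with 1 base of any kind between them, was in 25.7% of 70 member windows and 4.6% of all 32851 windows. The ETS motif, CCGGAAG, bound by GABP, was in 22.9% and 8.86%. The YY1 motif, AAGATGGC, was in 12.9% and 2.75%, and the ERR motif, AAGGTCA, in 11.4% and 4.72%. Windows were given for 2 of the called members, Ndufa10 and Atp5g3. The 250 bases before their starts are shown with those of Sdhd, which just missed the threshold, with motifs in capitals. Ndufa10 (chr1:92473759-92474008, minus strand) holds none of the 4 motifs, Atp5g3 (chr2:73911327-73911576, minus strand) holds an ERR motif read on the opposite strand, and Sdhd (chr9:50603850-50604099, minus strand) holds an NRF1 motif and an ETS motif, the ETS motif on the opposite strand. Counted over the whole windows, Atp5g3 also holds an NRF1 motif and Sdhd an ERR motif, which reach past the bases shown.
Ndufa10: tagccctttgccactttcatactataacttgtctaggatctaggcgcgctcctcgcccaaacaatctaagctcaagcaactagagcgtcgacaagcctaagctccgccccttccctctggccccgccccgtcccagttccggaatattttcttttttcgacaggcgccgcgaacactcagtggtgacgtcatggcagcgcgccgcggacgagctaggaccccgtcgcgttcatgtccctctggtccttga
Atp5g3: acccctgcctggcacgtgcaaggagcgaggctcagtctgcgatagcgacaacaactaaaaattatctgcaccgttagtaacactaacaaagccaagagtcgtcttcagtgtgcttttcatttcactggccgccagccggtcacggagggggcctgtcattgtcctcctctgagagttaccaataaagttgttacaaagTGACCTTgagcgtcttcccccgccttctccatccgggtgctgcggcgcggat
Sdhd: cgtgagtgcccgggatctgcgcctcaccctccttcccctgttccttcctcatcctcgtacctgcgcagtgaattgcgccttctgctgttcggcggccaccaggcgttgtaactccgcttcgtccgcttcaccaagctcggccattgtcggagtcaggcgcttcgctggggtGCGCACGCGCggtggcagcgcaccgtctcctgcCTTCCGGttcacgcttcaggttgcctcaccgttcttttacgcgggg

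Genes that work beside the subunits were taken from 11 lists. Of their 207 tested genes 17 rose (8.21%, beside 7.61% of all tested genes) and 3 fell (1.45%, beside 6.76%). On chromosome 1, 9 of 18 rose, beside 276 of 1026 tested genes there. Off it 8 of 189 rose (4.23%), beside 998 of 15711 tested genes. Assembly factors were called higher in 1 of 17 for complex I (Tmem70, log2 fold change 0.40, better known for ATP synthase) and 2 of 20 for complex IV (Coa5 at 0.54 and Cox15, of haem A synthesis, at 0.49), and none was called lower. None was called among the 4 listed for complex II, the 6 for complex III and the 4 others listed for ATP synthase. In the citric acid cycle 1 of 14 rose, Fh1, fumarase, with 1566 ± 42.8 normalised reads in KPSC and 964 ± 40.0 in KPC (SD, n = 3 each; log2 fold change 0.70). The median over these 14 genes was 0.25. Pyruvate entry had 1 of 12 higher (Pdhx at 0.49), and carriers and ubiquinone synthesis 1 of 17 (Coq10b at 0.72). Tmem70, Coa5, Fh1 and Coq10b are on chromosome 1.

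The mitochondrial ribosome had 6 of 77 genes higher and 1 lower, with a median of 0.16. Beside this list and the lists below, 7.61% of all tested genes were called higher and 6.76% lower. Mrps2 was at 0.69, Mrps6 at 0.71 and Mrpl9 at −0.37. Import and folding had 2 of 20 higher, Hspd1, a matrix chaperonin, at 0.62 and Timm17a at 0.44, and 1 lower, Hspa9 at −0.48. Among 16 regulators of mitochondrial genes, 3 rose and 1 fell. Ppargc1a, the coactivator PGC-1alpha, had 38.6, 33.5 and 21.6 normalised reads in KPSC and 119, 82.4 and 80.9 in KPC, a log2 fold change of −1.58 (SE 0.31; limma, adjusted p = 0.0147). Its relative Pprc1 was at 0.56, and Tfb2m, a mitochondrial transcription factor, at 0.64. Hspd1, Timm17a and Tfb2m are also on chromosome 1, and Hspa9 is on chromosome 18.

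The authors' deposited table called 9 members higher and 1 lower, of 80 with a p-value, where 8.62% of genes were called higher and 7.7% lower. All 6 members called here were among the 9, and the others were Ndufa9, Sdhd and Uqcrc1.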

How the data were processed

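Bulk RNA-seq was analysed for 3 KPSC and 3 KPC libraries. Each deposited signal value equals a gene's read count over a factor for its library. Multiplying by factors of 0.828 to 1.19 gave whole numbers, within 0.01, for 100.0% of values. The authors' deposited p-values and adjusted p-values are quoted only as theirs. The submitters' processing notes name mm10 and CASAVA 1.7; for the aligner, the counter and the strand setting nothing is stated in the sources used here. Of 89 rows matching the rule, 7 had no values. Rows with lost letters in the symbol (5) were left out.

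Genes with a value of 1 or more in 3 or more libraries were tested on log2(value + 1) by limma 3.58.1 (eBayes, trend), under R 4.3.3. Adjustment followed Benjamini and Hochberg, with a threshold of 0.05. A pseudocount understates changes of low genes. The design assumed either unit; as values are normalised, limma was the main test. edgeR 4.0.16 (8 members and 2474 genes called), limma-voom and DESeq2 1.42.0 on recovered reads, other scalings, filters, pseudocounts and left-out libraries were alternatives. All 82 members matched GENCODE M21, 76 with the same start, end and exon length. All pairs of libraries differed by more than sampling noise: the smallest chi-square over its degrees of freedom was 36.7. The test was checked on simulated data, where it recovered 60% of 2-fold and 96% of 4-fold changes. Of its 167 calls there, 11 were false, and data without changes gave 0 calls. Changes under 2-fold, the size seen in the called members, were not simulated. Genes were drawn independently, so shifts of a whole library were not simulated either. Members and lists were chosen with earlier results of these data known. Results of 1 called member are not reported here, though counts and medians include it. Named members were the others called, the highest and lowest of each complex, complex II, the c subunit genes and the tissue forms; in other lists, those called with the lowest adjusted p, at most 2 each way. Neighbours such as Ndufa9, Uqcrc1, Atp5b and Atp5a1 were named after their values were seen.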

Additional observations from a re-analysis of the deposited data

How the results depend on the processing

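Limits: 3 libraries a group, other tissue RNA that differs between libraries, and 2 libraries low for short genes. Against 6 members higher, 0 lower and 2406 genes called, equal library totals gave 0, 1 (Ndufa2) and 1272; eBayes without trend 2 higher and 1543 genes; DESeq2 10 and 1 (Ndufa4l2); the libraries with at most 5% acinar reads 3 (Cox6a2, Ndufa10, Ndufs1), 2 (Cox6b2, Ndufa2) and 1573, in a fit of 1 KPSC library, the muscle-rich replicate 3, assumed to vary like KPC replicates 1 and 2; KPSC replicate 3 and KPC replicate 1 both left out, which was chosen after seeing the data, 8 and 2 (Ndufa2, Ndufa4l2); length centring, also added then, 10, 1 (Ndufa2) and 3043. Leaving out each library gave 2 to 8 higher, 0 to 1 lower, 1250 to 3051 genes and a median of −0.01 to 0.24. Without acinar and islet genes 5 were higher, beside 5.49% of all genes. Of all genes, DESeq2 called 8.82% higher and 8% lower, and the fit with both low libraries out 7.48% and 7.55%. Over the 20 alternatives with 2 or more libraries a group, Ndufa10 was called in 19, missing under equal totals (adjusted p = 0.116), and Ndufs1 in 18. Over all 21, medians ran from −0.11 to 0.21 for complex I, 0.089 to 0.33 for II, 0.030 to 0.34 for III, −0.12 to 0.20 for IV and 0.0044 to 0.28 for ATP synthase. Deviations from the group means had correlations of −0.04, −0.18 and −0.28 between same-numbered libraries. With 3 libraries a group, these cannot settle whether the numbers pair the libraries. With the replicate as a block, 1 member was higher, 0 lower and 1014 genes were called. Of 53 named genes 13 changed sign somewhere, and neither fit called any of these. With equal totals Cox4i1 was −0.16, Cox6b1 −0.018, Cox7a2 −0.042, Cox7a2l −0.13, Cox7b −0.0056, Cox8a −0.15, Ndufa4 −0.075, Sdha −0.16 and Sdhb −0.00074. In libraries of at most 5% acinar reads Cox4i1 was −0.19, Cox7a2l −0.28, Cox7b −0.011, Cox8a −0.35 and Ndufa4 −0.010. Without acinar and islet genes Cox4i1 was −0.049, Cox7a2l −0.022, Cox8a −0.045 and Sdha −0.051. With both low libraries out Cox6a2 was −1.06, Cox7a1 −0.14 and Uqcr11 0.062, and with length centring Cox4i1 was −0.0087. Left-out libraries took Cox4i1 from −0.11 to 0.20, Cox6a1 from −0.30 to 0.0040, Cox6a2 from −0.99 to 1.82, Cox6b1 from −0.0024 to 0.29, Cox7a2 from −0.085 to 0.29, Cox7a2l from −0.072 to 0.27, Cox8a from −0.16 to 0.27 and Uqcr11 from −0.25 to 0.26. The cause was not tested.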

Other observations

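Glycolysis makes ATP outside mitochondria, and 12 of its 16 tested genes had a negative log2 fold change, with a median of −0.30. Of these 1 fell and 0 rose (limma, adjusted p under 0.05), against 6.76% of all tested genes called lower. Pfkl, a phosphofructokinase, had 3088, 3219 and 2441 normalised reads in KPSC and 4155, 5412 and 4049 in KPC, without overlap. Its log2 fold change was −0.64 (SE 0.16; limma, adjusted p = 0.0330).

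Of 5 tested erythroid genes, 2 rose in KPSC, the globin genes Hba-a1 and Hbb-bs, beside 7.61% of all tested genes. Hba-a1 had 249, 458 and 495 normalised reads in KPSC and 133, 173 and 218 in KPC (log2 fold change 1.16; limma, adjusted p = 0.0359). The globin genes Hba-a2 and Hbb-bt and the haem synthesis gene Alas2 did not pass, and near-identical globin copies can share reads.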
